A study of Homo sapiens with 12 samples.

Results

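The 10 genes described here, called members below, are imprinted genes or their direct neighbours: PEG10 and SGCE, MEST and COPG2, PEG3, H19 and CDKN1C, DLK1 and MEG3, and NNAT. They were taken by symbol from 56609 gene symbols measured in 12 RNA sequencing libraries of A4573 and TC-71, both established Ewing sarcoma cell lines of human origin. The fusion protein EWS-FLI1 drives this bone and soft tissue tumour, and YK-4-279 is a small-molecule inhibitor designed against EWS-FLI1. The groups were A4573-R and A4573 parental, and TC-71-R and TC-71 parental, with 3 libraries each. The resistant derivatives A4573-R and TC-71-R were in YK-4-279, at doses that the labels write as 650 uM and 400 uM, and both parental lines were in the solvent DMSO. The unit of these doses is in doubt, and they are printed as labelled. Resistance and exposure to the compound go together in both derivatives and cannot be told apart. Each derivative is a single named line per parent, and the labels do not say whether it is a clone, nor whether each library came from its own culture. The p-values therefore measure only the spread between these libraries, which may be technical.

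The set was chosen with the low values of PEG10 and MEST in A4573-R in view. Values of the 10 genes in A4573-R against A4573 parental are accordingly a description with no test, as are comparisons that share those libraries. TC-71-R and TC-71 parental did not enter that choice, and the genes were tested there.

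An imprinted gene is expressed mainly from the copy inherited from one parent. One of the parental copies carries DNA methylation at an imprinting control region, placed in the germ line and copied at each cell division. Directly, or through an insulator or a noncoding RNA, this mark determines which copy of each gene is silent, and the silent copy need not be the methylated one. PEG10, MEST, PEG3, DLK1 and NNAT are expressed from the paternal copy, and H19, MEG3 and CDKN1C from the maternal copy. SGCE shares the control region of PEG10 and is paternally expressed, while COPG2 lies tail to tail with MEST. Counts per gene do not separate the copies, so the values below are the sum of both.

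The libraries held 44.0 to 62.1 M reads on named genes (M, 1000000), and 3 reads corresponded to 0.0309 to 0.0444 CPM (counts per 1000000 reads, as deposited). Of the 10 Ewing sarcoma markers, 9 in A4573-R and in A4573 parental and 8 in TC-71-R and in TC-71 parental reached a mean of 1 CPM. NKX2-2 lay at 18.8 to 36.0 CPM and NR0B1 at 61.0 to 200.1 CPM as group means, while CD99 was at 0.0123 CPM or less in every group mean. The symbol CD99 is not unique in the annotation, and how reads that match several entries were counted was not examined. Its low value may therefore not show its level. Of 15 markers of blood, epithelial, endothelial, muscle, liver and fibroblast cells, 1 to 3 reached 1 CPM per group. Their summed level was 14.5 to 16.0 CPM in A4573-R libraries, against 14.5 to 15.2 CPM in A4573 parental libraries. It was 30.1 to 38.3 CPM in TC-71-R libraries, against 21.2 to 21.4 CPM in TC-71 parental libraries, and its part in the results for TC-71-R was not tested. Most of that sum was the collagen gene COL1A1, at 31.3 ± 4.58 CPM in TC-71-R, against 18.6 ± 0.239 CPM in TC-71 parental, while EPCAM of epithelial cells was at 0.496 CPM in TC-71-R, against 1.40 CPM in TC-71 parental, and PTPRC of blood cells at 0.962 CPM in TC-71-R, against 1.07 CPM in TC-71 parental.

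RefSeq start-site windows on GRCh38.p14, from 250 bases before to 50 bases after a transcript start, were at hand for 4 of the 10 genes (MEST, COPG2, H19 and MEG3). Those of MEST and COPG2 are shown because these neighbouring genes had unlike values in A4573-R. Capitals mark CpG dinucleotides, the bases that DNA methylation modifies. The first MEST window is chr7:130485925-130486224 and the fourth chr7:130491808-130492107, both on the plus strand, and the COPG2 window is chr7:130668699-130668998 on the minus strand.
MEST, window 1: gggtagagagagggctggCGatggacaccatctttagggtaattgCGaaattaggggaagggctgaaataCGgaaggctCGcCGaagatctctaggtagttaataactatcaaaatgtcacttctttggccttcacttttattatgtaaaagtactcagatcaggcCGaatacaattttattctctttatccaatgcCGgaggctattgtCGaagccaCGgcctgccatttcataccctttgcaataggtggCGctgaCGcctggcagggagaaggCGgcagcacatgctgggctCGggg
MEST, window 4: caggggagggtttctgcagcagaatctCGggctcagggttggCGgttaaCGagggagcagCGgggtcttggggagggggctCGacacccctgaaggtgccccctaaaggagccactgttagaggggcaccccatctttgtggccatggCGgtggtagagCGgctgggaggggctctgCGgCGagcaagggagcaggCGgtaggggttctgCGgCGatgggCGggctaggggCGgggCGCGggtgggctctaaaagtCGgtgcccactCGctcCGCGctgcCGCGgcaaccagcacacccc
COPG2, window 1: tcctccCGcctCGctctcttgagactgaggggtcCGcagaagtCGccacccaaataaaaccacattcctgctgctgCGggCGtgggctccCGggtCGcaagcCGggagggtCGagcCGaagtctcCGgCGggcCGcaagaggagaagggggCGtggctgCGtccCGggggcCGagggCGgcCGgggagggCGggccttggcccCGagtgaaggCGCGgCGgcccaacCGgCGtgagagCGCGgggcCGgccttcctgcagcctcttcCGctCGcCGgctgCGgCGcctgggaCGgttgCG
The windows printed hold 13 CpG (MEST, window 1), 22 (MEST, window 4) and 37 (COPG2), and the median over 35116 RefSeq windows is 14. All 5 MEST windows hold 13 to 25. The hexamer TGCCGC, the core motif of the imprint-keeping zinc finger protein ZFP57, was searched on both strands and lies in 4 of 5 MEST windows, not in the COPG2 window, and in 16.7% of all windows. MEST windows 1 and 2 overlap, as do windows 4 and 5, so these 4 are not independent sequences. In MEST window 4 it occurs 1 time on each strand, and these matches overlap. Such matches describe the letters only. No methylation was measured in these libraries.

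PEG10, a gag-pol gene derived from a retrotransposon and required for placenta formation in mice, lies at chr7:94656325-94669695 on the plus strand (GRCh38, GENCODE release 29). It had 3.60, 3.09 and 3.62 CPM in the A4573-R libraries, against 187, 191 and 198 CPM in the A4573 parental libraries. It had 153, 141 and 159 CPM in the TC-71-R libraries, against 53.1, 53.0 and 51.5 CPM in the TC-71 parental libraries. The derivatives thus stood on opposite sides of their parents, with no overlap between libraries in either pair. In A4573-R the mean was 3.44 ± 0.303 CPM, against 192 ± 5.80 CPM in A4573 parental (SD, n = 3 each), a log2 fold change of -5.45 (SE 0.05) and the lowest of 14335 genes in that comparison. In reads pooled over the libraries this was 56.1-fold lower (95% Clopper-Pearson interval 52.3 to 60.3, counting error only). In TC-71-R PEG10 rose, to 151 ± 9.55 CPM, against 52.5 ± 0.917 CPM in TC-71 parental, a log2 fold change of 1.50 (SE 0.05, limma, adjusted p = 6.69e-13). It was rank 206 from the top of 14335 in TC-71-R. In a bulk library, fewer cells with the transcript and less transcript per cell cannot be told apart.

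SGCE, which encodes the membrane protein epsilon-sarcoglycan and is mutated in myoclonus dystonia, starts head to head with PEG10 and runs the other way (chr7:94524204-94656572, minus strand). The genes share 248 bases at their starts, and the sources used here do not say whether reads were counted by strand. SGCE had 6.73, 7.23 and 7.24 CPM in A4573-R, against 16.8, 16.7 and 16.5 CPM in A4573 parental. It had 13.02, 12.80 and 13.24 CPM in TC-71-R, against 9.89, 11.4 and 10.3 CPM in TC-71 parental. The direction matched that of PEG10 in each line, with no overlap between libraries, but the size was smaller. The log2 fold change was -1.13 (SE 0.05) in A4573-R, and in TC-71-R it was 0.29 (SE 0.05, limma, adjusted p = 7.89e-05). Per kb of exon, the ratio of PEG10 to SGCE was 1.52 ± 0.173 in A4573-R, against 36.0 ± 1.38 in A4573 parental. The same ratio was 36.2 ± 1.70 in TC-71-R, against 15.7 ± 1.09 in TC-71 parental (SD, n = 3 libraries in each group). Exon length was the union of all annotated exons, 20884 bases for SGCE and 6689 bases for PEG10. The ratio depends on these lengths, which are the same in every group. Without them, SGCE stood above PEG10 in A4573-R, at 7.07 ± 0.294 CPM against 3.44 ± 0.303 CPM. The 4 groups had the same order for both genes: A4573 parental, TC-71-R, TC-71 parental and A4573-R from high to low, and no neighbouring groups in it overlapped.

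MEST, a member of the alpha/beta hydrolase fold family that marks mesoderm in the mouse embryo, lies at chr7:130486171-130506465 on the plus strand. It had 1, 3 and 1 reads in the A4573-R libraries, against 1772, 2058 and 1933 reads in the A4573 parental libraries. It had 3, 9 and 9 reads in the TC-71-R libraries, against 4, 7 and 6 reads in the TC-71 parental libraries. MEST was thus read above a few counts in a single group, A4573 parental. Its mean was 0.0216 ± 0.0138 CPM in A4573-R, against 23.6 ± 0.334 CPM in A4573 parental (SD, n = 3 each). The log2 fold change was -4.59 (SE 0.05), the second lowest of all tested genes, and it was -9.99 with edgeR on whole reads, which needs no added 1 CPM. In pooled reads MEST was 1069-fold lower in A4573-R (interval 458 to 3294). In TC-71-R, at 0.0851 ± 0.0374 CPM against 0.0663 ± 0.0184 CPM in TC-71 parental, it did not pass (log2 fold change 0.02, SE 0.05, limma, adjusted p = 0.634), and the libraries overlapped. Between the parental lines MEST was 357-fold lower in TC-71 parental than in A4573 parental in pooled reads (interval 222 to 613). The host-gene microRNA MIR335, which lies within MEST, was listed at 0 in all 12 libraries.

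COPG2, which encodes a coat subunit of vesicles moving between the Golgi and the endoplasmic reticulum, lies at chr7:130506238-130668748 on the minus strand and overlaps the end of MEST by 228 bases. It had 33.5, 32.1 and 32.3 CPM in A4573-R, against 29.5, 30.4 and 29.6 CPM in A4573 parental. It had 34.7, 33.6 and 32.9 CPM in TC-71-R, against 38.9, 39.7 and 41.8 CPM in TC-71 parental. COPG2 thus stood slightly higher in A4573-R, where MEST was near 0. The log2 fold change was 0.12 (SE 0.04) in A4573-R, and in TC-71-R COPG2 fell by 0.24 (SE 0.04, limma, adjusted p = 2.00e-05). From high to low the order was TC-71 parental, TC-71-R, A4573-R and A4573 parental, where TC-71-R and A4573-R overlapped.

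**Figure D1:**
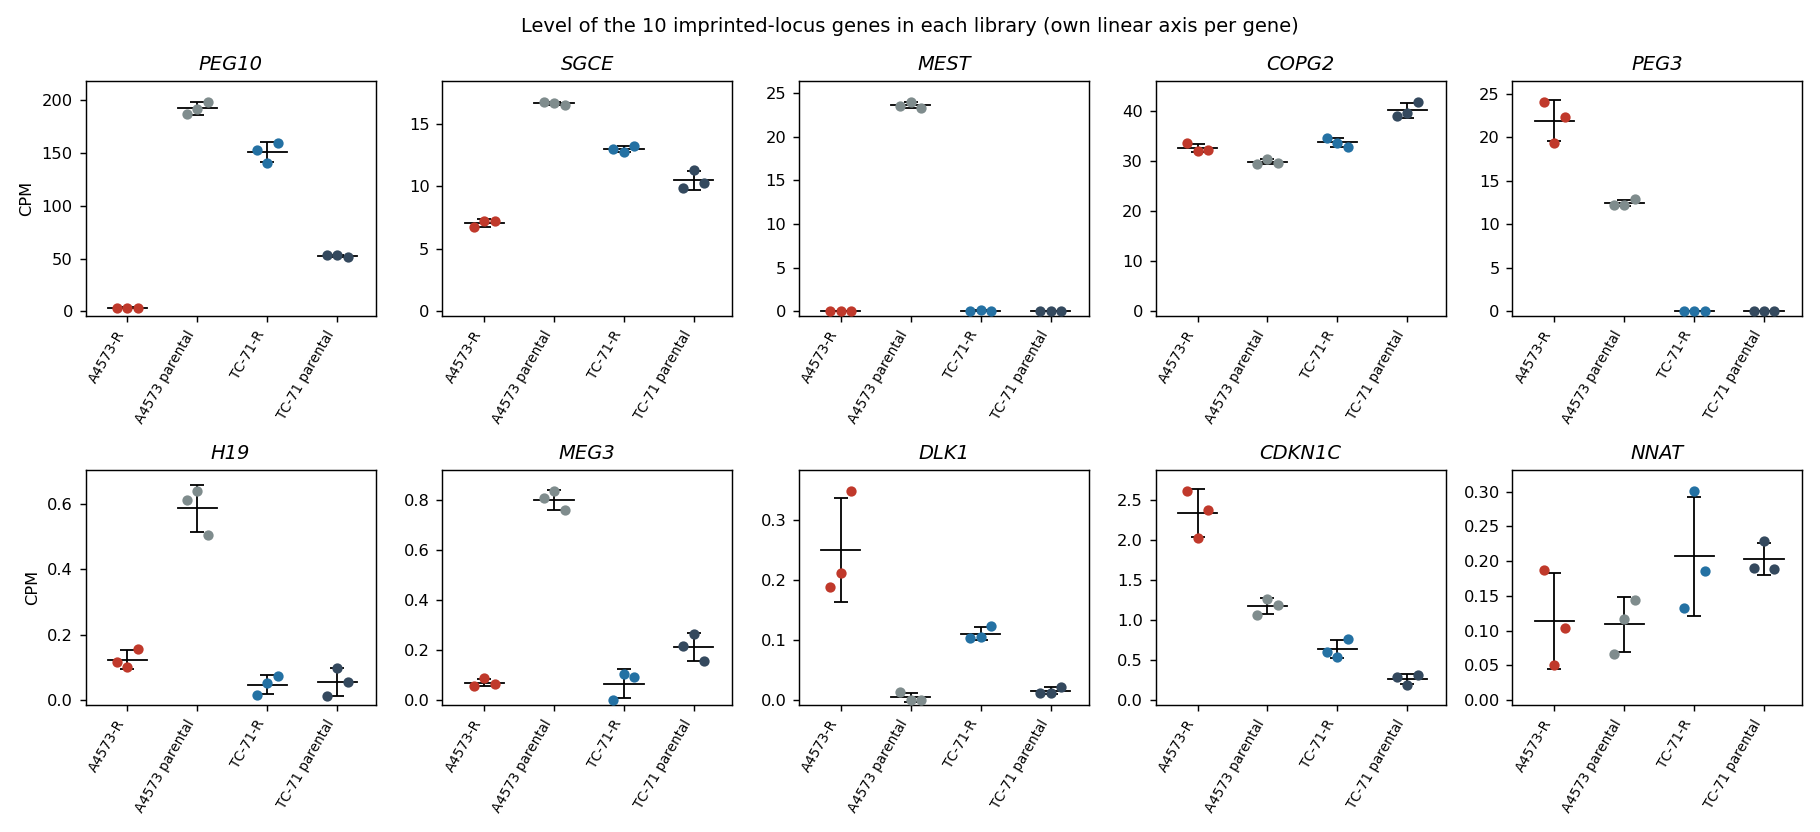
Each panel shows 1 gene in CPM on its own linear axis, with a point per library, a bar at the mean of 3 libraries and an error bar of 1 SD. PEG10 was at 3.44 CPM in A4573-R and at 192 CPM in A4573 parental, MEST was near 0 in every group other than A4573 parental, and COPG2 lay between 29.9 and 40.1 CPM in the 4 group means.

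PEG3, a zinc finger protein of the paternal copy on chromosome 19 (chr19:56810077-56840728, minus strand), did not follow PEG10 and MEST. It had 24.1, 19.4 and 22.3 CPM in A4573-R, against 12.3, 12.2 and 12.9 CPM in A4573 parental, a log2 fold change of 0.76 (SE 0.06). The A4573-R libraries were all above the A4573 parental ones. In TC-71 the gene was nearly unread, with 2, 5 and 2 reads in TC-71-R, against 0, 1 and 1 reads in TC-71 parental. These groups did not overlap, but with limma the change did not pass (log2 fold change 0.04, SE 0.06, adjusted p = 0.553), while edgeR on the recovered reads gave 2.09 with an adjusted p of 0.0397. PEG3 overlaps ZIM2 over its whole length, and ZIM2 was at or below 0.0339 CPM in every group mean.

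On chromosome 11, H19, a maternally expressed long noncoding RNA that also carries a microRNA, was low in every library. It had 8, 8 and 12 reads in A4573-R, against 46, 55 and 42 reads in A4573 parental, a pooled ratio of 4.74-fold lower (interval 3.14 to 7.38). It had 1, 4 and 7 reads in TC-71-R, against 1, 8 and 5 reads in TC-71 parental, and these libraries overlapped. CDKN1C, a maternally expressed inhibitor of cyclin-dependent kinases (chr11:2883213-2885773, minus strand), stood higher in both derivatives. It had 2.62, 2.02 and 2.38 CPM in A4573-R, against 1.06, 1.27 and 1.19 CPM in A4573 parental. It had 0.607, 0.538 and 0.763 CPM in TC-71-R, against 0.286, 0.193 and 0.310 CPM in TC-71 parental. No libraries overlapped in either pair. The log2 fold change was 0.62 (SE 0.07) in A4573-R, and CDKN1C rose in TC-71-R by 0.37 (SE 0.07, limma, adjusted p = 0.000199), or by 1.31 with edgeR on whole reads. In pooled reads it was 2.45-fold higher in TC-71-R (interval 1.83 to 3.30). IGF2, the growth factor gene beside H19, was below the filter for testing, at 1.05 CPM in A4573-R, against 0.260 CPM in A4573 parental, and at 0.431 CPM in TC-71-R, against 0.496 CPM in TC-71 parental. Like CD99, the symbol IGF2 is not unique in the annotation, so these values may not show its level.

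The reciprocal pair on chromosome 14 moved in opposite directions at very low levels. MEG3, a maternally expressed long noncoding RNA, had 4, 7 and 5 reads in A4573-R, against 61, 72 and 63 reads in A4573 parental, and was 11.4-fold lower in pooled reads (interval 6.82 to 20.3). It had 0, 8 and 9 reads in TC-71-R, against 18, 22 and 14 reads in TC-71 parental, 2.98-fold lower in pooled reads (interval 1.70 to 5.48). DLK1, a paternally expressed membrane protein of the Notch ligand type, had 13, 17 and 27 reads in A4573-R, against 1, 0 and 0 reads in A4573 parental, a pooled ratio of 61.4 (interval 10.6 to 2469). It had 7, 8 and 12 reads in TC-71-R, against 1, 1 and 2 reads in TC-71 parental, a pooled ratio of 7.20 (interval 2.51 to 28.3). No libraries overlapped in any of these 4 pairs. Both genes were below the filter for testing. With no filter, over 34228 genes in limma, the TC-71-R change was -0.19 for MEG3 (adjusted p = 0.00311) and 0.13 for DLK1 (adjusted p = 0.0122) on the log2(CPM + 1) scale. The highest library of the pair, 0.838 CPM of MEG3, held 72 reads.

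NNAT, a paternally expressed small membrane protein of developing brain, lies in an intron of BLCAP on chromosome 20 and was low throughout. It had 13, 4 and 8 reads in A4573-R, against 5, 10 and 12 reads in A4573 parental. It had 9, 23 and 18 reads in TC-71-R, against 16, 19 and 17 reads in TC-71 parental. The libraries overlapped in both pairs, and the pooled ratios had intervals of 0.556 to 1.79 in A4573-R and 0.682 to 1.54 in TC-71-R, so a change within these bounds was not detectable at this depth.

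Over the 10 genes, A4573-R libraries lay entirely above those of A4573 parental for 4 (PEG3, CDKN1C, COPG2 and DLK1) and entirely below for 5 (PEG10, SGCE, MEST, H19 and MEG3). Of the 6 tested members alone, 3 lay entirely above and 3 entirely below. Of all tested genes, 39.7% lay entirely above and 35% entirely below, and 72.5% were called in limma. Nothing is read from the members' count, since this comparison chose them. TC-71-R libraries lay entirely above those of TC-71 parental for 5 genes (PEG10, SGCE, PEG3, CDKN1C and DLK1) and entirely below for 2 (COPG2 and MEG3). Of the 6 tested members alone, 4 lay entirely above and 1 entirely below, against 40.2% and 40.9% of all tested genes. Of the 6 that entered the test, 3 rose in TC-71-R (PEG10, SGCE and CDKN1C), 1 fell (COPG2) and 2 did not pass (MEST and PEG3), where 38.8% of all tested genes were called higher and 39.6% lower (78.5% in all). MEST, PEG3 and CDKN1C passed the filter through their A4573 libraries. The shares called were high over all genes, so sizes are given as well. On the log2(CPM + 1) scale, 10.3% of genes were called at 2-fold or more in TC-71-R, PEG10 among them, while the low CDKN1C passed 2-fold only in reads, as given above.

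The parental lines are set against each other with the same A4573 parental libraries as above. TC-71 parental libraries lay entirely below those of A4573 parental for 7 genes (PEG10, SGCE, MEST, PEG3, H19, MEG3 and CDKN1C) and entirely above for 2 (COPG2 and NNAT). Of the 6 tested members alone, 5 lay entirely below and 1 entirely above, where 45.4% of all tested genes lay entirely below and 47.1% entirely above. Nearly all genes thus separated these lines, and nothing is read from the members' count. The log2 difference was -1.85 for PEG10, -4.53 for MEST and -3.74 for PEG3 on the log2(CPM + 1) scale. With edgeR on whole reads it was -1.90 for PEG10, -8.47 for MEST and -10.41 for PEG3, so the order of MEST and PEG3 turned with the method. The A4573-R change differed from the TC-71-R change in 78.1% of all tested genes. As a description, the A4573-R change less the TC-71-R change was -6.95 for PEG10, -4.61 for MEST and -1.42 for SGCE. The same difference was 0.37 for COPG2, and for PEG3 and CDKN1C its sign turned with the method (0.72 and 0.24 with limma, -1.30 and -0.35 with edgeR).

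**Figure D2:**
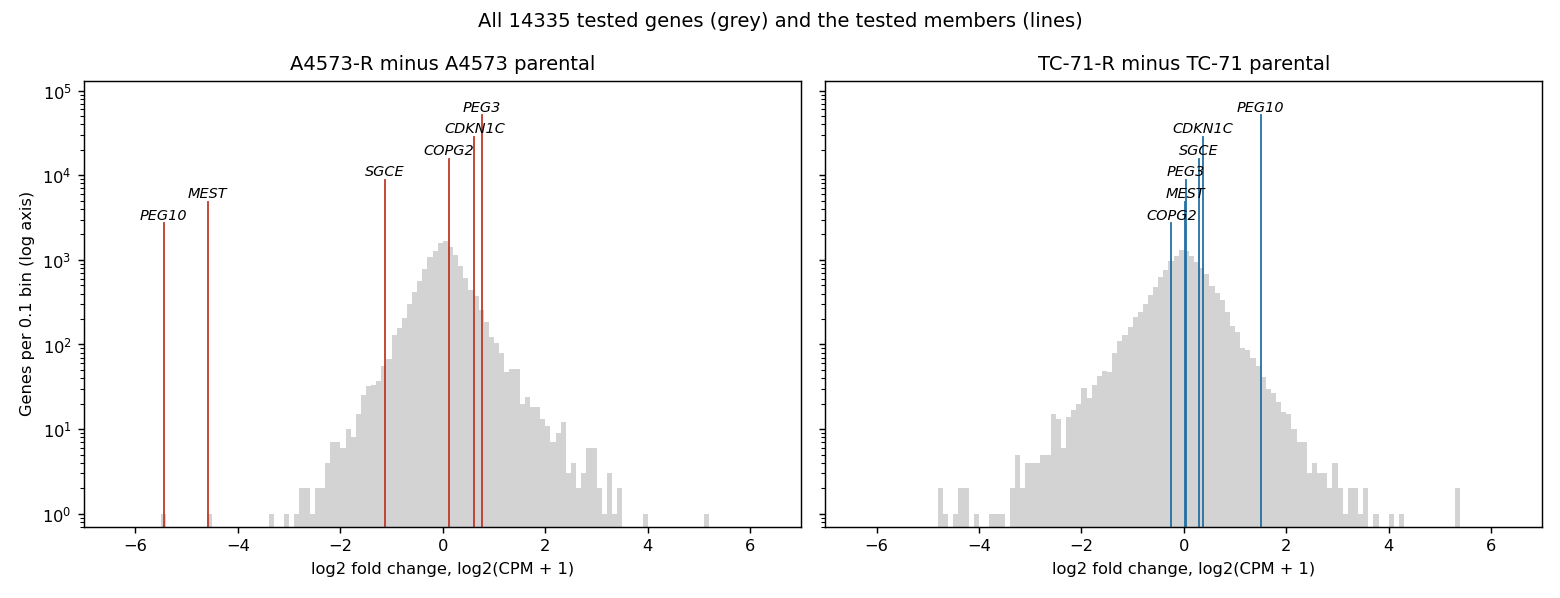
Grey bars count all 14335 tested genes per bin of 0.1 log2 fold change on a log axis, for A4573-R against A4573 parental (left) and TC-71-R against TC-71 parental (right), and lines mark the 6 tested members. PEG10 (-5.45) and MEST (-4.59) are the lowest genes on the left, and on the right PEG10 (1.50) lies above the other members.

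The genes next to PEG10 moved by far less than PEG10 in A4573-R. Of 6 tested genes within 1 Mb that are not members, 5 fell and 1 rose, with a median log2 fold change of -0.42, where 34.1% of all tested genes were called lower, 38.3% higher and the median was 0.02. CASD1, a sialic acid O-acetyltransferase 99.3 kb away, fell to 11.4 ± 1.58 CPM in A4573-R, against 22.1 ± 1.50 CPM in A4573 parental (log2 fold change -0.90, SE 0.12, limma, adjusted p = 4.81e-06). CASD1 overlaps SGCE on the other strand, and whether reads were counted by strand is not stated, so their counts may not be separate. PON2, a lactonase, fell by 0.50, BET1, a vesicle fusion protein, by 0.45, and PPP1R9A, an actin-binding protein, by 0.39. COL1A2, a type I collagen chain, fell by 0.29. It had 238 ± 2.82 CPM in A4573-R, against 292 ± 6.19 CPM in A4573 parental, and these libraries did not overlap. Its SE of 0.11 in limma comes from the spread within all 4 groups. Its adjusted p of 0.0294 in limma became 0.0525 to 0.0729 when A4573 parental replicate 1 or 3 or any A4573-R replicate was left out. That adjusted p was 0.244 with a pseudocount of 0.25 and 0.523 with DESeq2, so that 4 rather than 5 of these neighbours were called lower there. GNG11, a G protein gamma subunit, rose by 0.41. In TC-71-R, 2 of the 6 rose (COL1A2 and PON2), 1 fell (GNG11) and 3 did not pass, with a median of 0.09 against -0.00 over all genes. Of all tested genes, 78.5% were called in TC-71-R. COL1A2 was low there, at 0.534 ± 0.381 CPM in TC-71-R, against 0.0390 ± 0.0184 CPM in TC-71 parental. It passed the filter through its A4573 libraries. Among the 3 that did not pass in limma, BET1 passed with edgeR and DESeq2 (log2 fold change 0.17, adjusted p = 0.0112 in both). CASD1, PPP1R9A and PON2 are listed as imprinted in some tissues, and their TC-71-R log2 fold changes were -0.12, 0.05 and 0.31. TFPI2, listed in the same domain, was below the filter for testing. It had 0.256 CPM in A4573-R, against 0.664 CPM in A4573 parental, and 0.347 CPM in TC-71-R, against 0.983 CPM in TC-71 parental. No libraries overlapped in either pair. ASB4, PON1, PON3 and CALCR, also below the filter, were at or below 0.0462 CPM in every group mean.

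Around MEST, 7 of 14 tested genes that are not members fell in A4573-R, 2 rose and 5 did not pass, with a median of -0.12. CEP41, a centrosomal protein 43.7 kb away on the side opposite to COPG2, was at 25.2 CPM in A4573-R, against 32.6 CPM in A4573 parental (log2 fold change -0.36, limma, adjusted p = 3.06e-06). KLF14, a maternally expressed zinc finger gene beyond COPG2, had 0.385 CPM in A4573-R, against 0.394 CPM in A4573 parental, and did not pass. AC016831.1, annotated as a processed pseudogene 316 kb away, fell by 1.39 to 2.08 CPM in A4573-R, against 7.01 CPM in A4573 parental. Whether its reads arose at this place was not tested. In TC-71-R, 7 of the 14 rose, 6 fell and 1 did not pass, with a median of 0.09. The shares called were 64.3% in A4573-R and 92.9% in TC-71-R, against 72.5% and 78.5% of all tested genes. KLF14 rose in TC-71-R to 3.37 CPM, against 1.19 CPM in TC-71 parental, and CEP41 to 22.2 CPM, against 14.5 CPM. ZC3HC1, KLHDC10 and TMEM209, farther from MEST, had log2 fold changes of -0.25, -0.15 and -0.02 in A4573-R. STRIP2, 998 kb away, fell most, to 0.607 ± 0.115 CPM in A4573-R, against 4.44 ± 0.0824 CPM in A4573 parental (-1.76, limma, adjusted p = 1.66e-12). STRIP2 and AC016831.1 were the 2 of the 14 called lower by 2-fold or more in A4573-R, and none was called higher by as much. Over all tested genes, 5.72% were called at 2-fold or more in either direction.

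Chromosome 7 as a whole stood slightly low in A4573-R. Of 696 tested genes without the members, 321 fell, 187 rose and 188 did not pass, with a median of -0.09, the fourth lowest among 23 chromosomes whose medians ran from -0.19 to 0.25. In TC-71-R 288 rose, 257 fell and 151 did not pass, with a median of 0.02. The shares called were 73.0% in A4573-R and 78.3% in TC-71-R, against 72.5% and 78.5% of all tested genes.

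**Figure D3:**
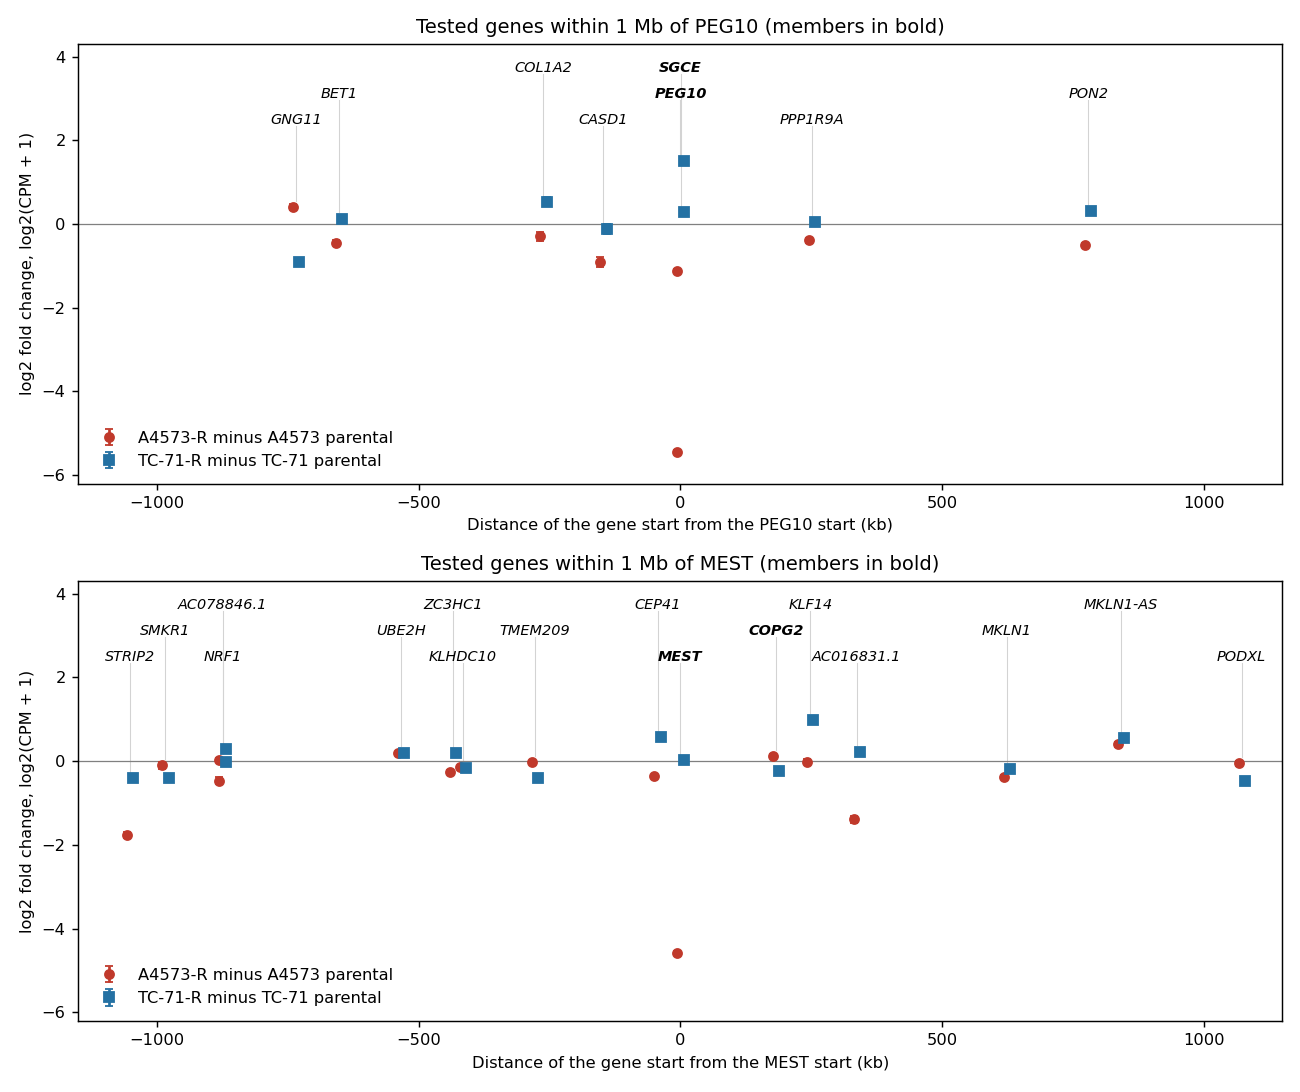
Log2 fold changes of tested genes within 1 Mb of PEG10 (top) and MEST (bottom) are plotted against the distance of their starts in kb, with circles for A4573-R against A4573 parental, squares for TC-71-R against TC-71 parental, and bars of 1 SE from limma. PEG10 at -5.45 and MEST at -4.59 stand apart from genes on either side, which lie between -1.76 and 0.41 in A4573-R.

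Other imprinted genes that entered the test did not share the size of the PEG10 and MEST values on the log2(CPM + 1) scale. Of 72 further imprinted genes written down from general knowledge, 69 matched by symbol and 37 entered the test. In A4573-R 12 rose, 16 fell and 9 did not pass, with a median of -0.06, and on the log2(CPM + 1) scale none was called at 2-fold or more, where 5.72% of all genes were. That scale understates low genes such as PHLDA2, which was called and had 0.383 CPM in A4573-R, against 0.0942 CPM in A4573 parental. MAGEL2, below the filter for testing, had 0.744 CPM in A4573-R, against 0.0221 CPM in A4573 parental. MAGEL2 had 0.0567 CPM in TC-71-R, against 0.636 CPM in TC-71 parental, and no libraries overlapped in either pair. In TC-71-R 11 rose, 18 fell and 8 did not pass, with a median of -0.10, and 3 rose and 2 fell by 2-fold or more. The shares called were 75.7% in A4573-R and 78.4% in TC-71-R, against 72.5% and 78.5% of all tested genes. On the log2(CPM + 1) scale the A4573-R changes of these 37 ran from -0.90 to 0.65, so PEG10, MEST and SGCE lay below all of them.

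Among the risen genes in A4573-R were TP73, a transcription factor gene, at 7.35 ± 0.570 CPM, against 4.31 ± 0.145 CPM in A4573 parental, INPP5F, a phosphoinositide phosphatase (log2 fold change 0.55), SNRPN, a splicing protein gene (0.55), and IGF2R, the receptor that clears IGF2 (0.49). Among the fallen ones were ADAM23, a surface protein (-0.63), and OSBPL5, a lipid transfer protein (-0.46), beside CASD1 and PON2. In TC-71-R, DIO3, the enzyme that inactivates thyroid hormone and a neighbour of DLK1 and MEG3, rose to 2.10 ± 0.0644 CPM, against 0.0986 ± 0.0448 CPM in TC-71 parental (log2 fold change 1.50, limma, adjusted p = 1.43e-13). DIO3 was listed at 0 in all 6 A4573 libraries. It passed the filter only through its TC-71-R libraries, where it is high, so its adjusted p is a description. OSBPL5, a neighbour of CDKN1C, rose by 1.45 and TP73 by 1.24 in TC-71-R. ADAM23 fell by 1.57, HM13, a signal peptide peptidase, by 1.13, GRB10, an adaptor that restrains insulin signalling, by 0.87, and SNRPN by 0.80. SNRPN shares exons with SNURF and its reads may be split between them.

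**Figure D4:**
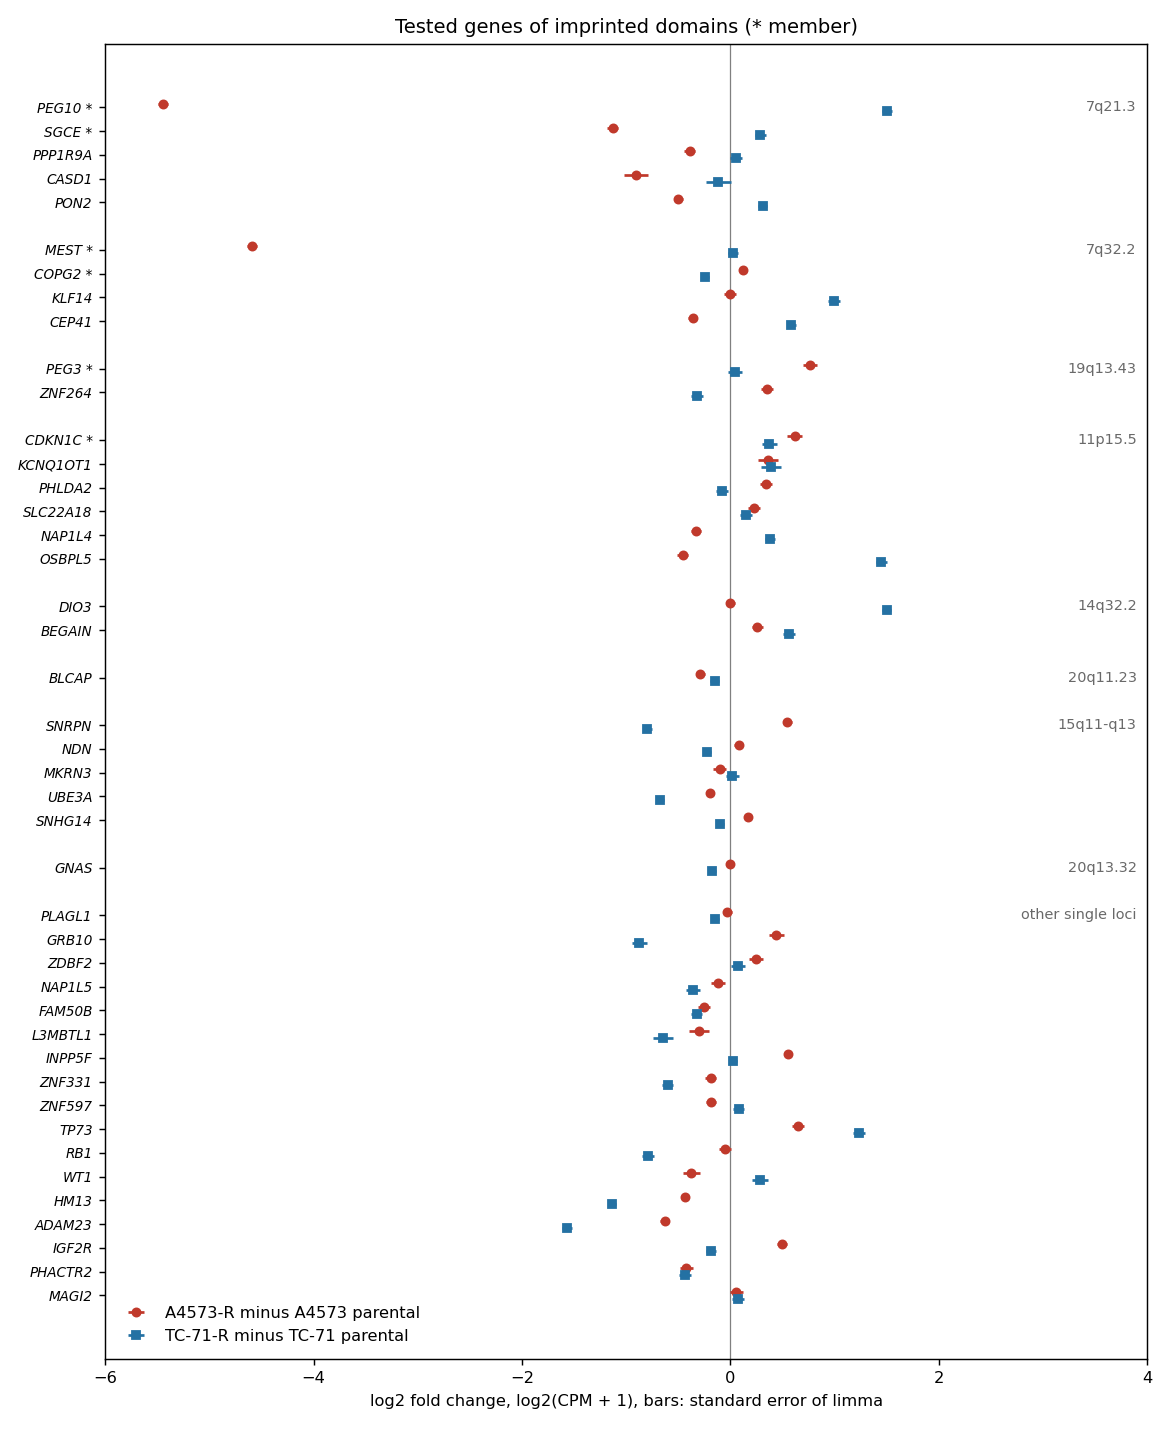
Each row is 1 tested imprinted gene, grouped by chromosome band and marked with a star where it is a member; circles give A4573-R against A4573 parental, squares TC-71-R against TC-71 parental, and bars 1 SE from limma. In A4573-R, PEG10, MEST and SGCE lie to the left of the 37 other genes, which run from -0.90 to 0.65.

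Transcripts of genes whose proteins place and keep imprints did not move one way. Of 18 tested genes of 22 listed, 6 rose, 8 fell and 4 did not pass in A4573-R (median -0.04), and 7 rose, 6 fell and 5 did not pass in TC-71-R (median -0.03). The shares called were 77.8% in A4573-R and 72.2% in TC-71-R, against 72.5% and 78.5% of all tested genes. All tested genes split too, with 38.3% higher and 34.1% lower in A4573-R, and 38.8% and 39.6% in TC-71-R. DNMT1, the methyltransferase that copies methylation at replication, fell to 274 ± 2.19 CPM in A4573-R, against 328 ± 7.61 CPM in A4573 parental (log2 fold change -0.26, limma, adjusted p = 2.29e-06). It rose to 143 ± 3.30 CPM in TC-71-R, against 111 ± 2.12 CPM in TC-71 parental (0.37, adjusted p = 3.25e-08). UHRF1, which brings DNMT1 to replicated DNA, had log2 fold changes of -0.32 in A4573-R and 0.54 in TC-71-R. The de novo methyltransferase DNMT3B rose by 0.55 in A4573-R and fell by 0.23 in TC-71-R, and DNMT3A rose by 0.62 in TC-71-R and had a log2 fold change of 0.03 in A4573-R that did not pass. CTCFL, a germ-cell relative of the insulator protein CTCF, rose to 1.16 ± 0.0912 CPM in A4573-R, against 0.347 ± 0.0551 CPM in A4573 parental, and had 207 CPM in TC-71-R and 218 CPM in TC-71 parental. ZFP57 was listed at 0 in all groups, and ZNF445, the other zinc finger protein known to keep imprints, had log2 fold changes of -0.07 in A4573-R, which did not pass, and 0.39 in TC-71-R, where it rose.

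Other genes that, like PEG10, descend from retrotransposon gag sequences changed in both directions. Of 19 tested genes of 24 matched, 6 rose, 9 fell and 4 did not pass in A4573-R (median -0.08), and 4 rose, 5 fell and 10 did not pass in TC-71-R (median -0.02). The shares called were 78.9% in A4573-R and 47.4% in TC-71-R, against 72.5% and 78.5% of all tested genes, which also went both ways. PNMA2 rose to 62.1 ± 6.58 CPM in A4573-R, against 27.7 ± 0.558 CPM in A4573 parental (log2 fold change 1.13, limma, adjusted p = 1.04e-10). RTL8B fell by 0.97 in A4573-R and had 0.09 in TC-71-R, which did not pass in limma (adjusted p = 0.124) but did with edgeR (0.13, adjusted p = 0.0259) and DESeq2 (0.13, adjusted p = 0.0436). RTL8C and CCDC8 went opposite ways in the derivatives: RTL8C had log2 fold changes of -0.58 in A4573-R and 0.68 in TC-71-R, and CCDC8 -0.61 and 0.62, each called. RTL5 fell by 1.22 in TC-71-R. RTL8A, RTL8B and RTL8C are close copies of each other, so reads may be split between them.

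Over the 12 libraries, the genes nearest to PEG10 in pattern, by the root mean square difference of centred log2(CPM + 1) among 14324 genes, were EPAS1 (1.15), EN2 (1.20) and FZD4 (1.20), where PEG10 itself varied by 2.16 on this measure. EPAS1, a hypoxia-inducible transcription factor, had 0.739 CPM in A4573-R, 7.78 CPM in A4573 parental, 15.6 CPM in TC-71-R and 3.25 CPM in TC-71 parental. For MEST the nearest were CAPN6 (0.59), THBS1 (0.65) and OLFML1 (0.72), where MEST itself varied by 1.97. CAPN6, a calpain without protease activity, had 0.933 CPM in A4573-R, against 18.9 CPM in A4573 parental, and 1.07 CPM in TC-71-R, against 1.51 CPM in TC-71 parental. THBS1, the matrix protein thrombospondin, had 1.04 CPM in A4573-R, against 12.98 CPM in A4573 parental. The likeness is a description over 4 groups of 3 libraries.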

How the data were processed

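Per the labels' protocols, total RNA of cultured cells was made into TruSeq libraries and read as paired ends of 100 bases. Per the submitters' processing notes, Trimmomatic, STAR 2.4, HTSeq and edgeR were used with GRCh38; whether reads were counted by strand is not stated in those notes. The deposited signal is CPM scaled by the authors. Each column, divided by its step, gave whole reads for 100% of values (within 0.001). The 5 entries without a gene name (30.6% to 42.0% of reads) were left out of depth and tests, and entries sharing a symbol were summed.

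The 14335 genes that reached 1 CPM in 3 or more of the 12 libraries were fitted as log2(CPM + 1), which understates changes of low genes, with limma 3.58.1 in R 4.3.3: one mean per group, moderated variances with a trend, Benjamini-Hochberg threshold 0.05. It was tested on simulated data. Alternatives used edgeR 4.0.16 and DESeq2 1.42.0 on recovered reads, other pseudocounts, filters, scalings, windows and libraries left out. On whole reads, edgeR called 5299 genes higher and 5228 lower in A4573-R, and 5972 and 5438 in TC-71-R. Pooled-read ratios have 95% Clopper-Pearson intervals for counting error only. Labels name no batch. Exact tests on 3 against 3 libraries cannot go below 0.1 and were not used.

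Members and gene lists were chosen with earlier results of these data known. Named are all members, the 6 genes nearest to PEG10 and to MEST, up to 4 per list and direction with the largest called change (libraries not overlapping, and the higher group averaging 1 CPM or more), the 5 nearest in pattern, and DNMT1, DNMT3A, DNMT3B and UHRF1; the text gives some of these. IGF2, ZIM2, ZFP57, ZNF445, PHLDA2, MAGEL2, TFPI2, ASB4, PON1, PON3, CALCR, STRIP2 and the markers were named after their values were seen where no rule took them.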

Additional observations from a re-analysis of the deposited data

Results flagged for a closer look

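3 members stood on opposite sides of their parents in the 2 derivatives, every library included, and this difference was not tested because the A4573-R comparison chose them. The A4573-R change less the TC-71-R change was -6.95 for PEG10 and -1.42 for SGCE, both lower in A4573-R and higher in TC-71-R. It was 0.37 for COPG2, which was higher in A4573-R and lower in TC-71-R.

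Of the genes that are not members and that the naming rule took, 18 had called changes in opposite directions whose difference passed in limma (adjusted p = 5.79e-12 to 0.000223), where over all tested genes the difference passed in 78.1%. The share of all tested genes called in opposite directions is not given here, and nothing is read from this count. Many of the 18 were named for a large called change in these same comparisons, so their adjusted p-values are a description. The calls of AC016831.1, COL1A2 and TET3 were lost under some alternatives. 8 of the 18 rose in A4573-R and fell in TC-71-R. Among imprinted genes the difference was 1.34 for SNRPN (SE 0.06, adjusted p = 2.11e-11), 1.31 for GRB10 (SE 0.10, adjusted p = 1.18e-08) and 0.68 for IGF2R (SE 0.07, adjusted p = 3.09e-07). It was 1.44 for the gag-like gene RTL5, 1.31 for GNG11 beside PEG10, and 0.98, 0.78 and 0.42 for KDM1B, DNMT3B and TET3 of the methylation machinery. The other 10 fell in A4573-R and rose in TC-71-R. Among imprinted genes the difference was -1.91 for OSBPL5 (SE 0.08, adjusted p = 7.14e-12) and -0.81 for PON2 (SE 0.06, adjusted p = 6.43e-09). Near MEST it was -0.95 for CEP41 (SE 0.06, adjusted p = 2.20e-09), -1.62 for AC016831.1 and -0.44 for ZC3HC1. Near PEG10 it was -0.83 for COL1A2, whose level in both TC-71 groups was low. The difference was -1.26 for RTL8C and -1.23 for CCDC8 of the gag-like genes, and -0.62 for DNMT1 and -0.86 for UHRF1.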

How the results depend on the processing

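The calls of PEG10, SGCE, COPG2 and CDKN1C in TC-71-R kept their direction and stayed past the threshold under every alternative that gave a value. For PEG10 the TC-71-R change ran from 1.46 to 1.56. For CDKN1C it ran from 0.32 to 1.31, the highest with edgeR and DESeq2. MEST in A4573-R was -6.46 with a pseudocount of 0.25 and -10.07 with DESeq2. With no filter, 2 members rather than 1 were called lower in TC-71-R. PEG3 in TC-71-R passed with edgeR. The A4573-R change less the TC-71-R change turned sign for PEG3 (-1.30 with edgeR, -1.49 with DESeq2) and CDKN1C (-0.35 and -0.33), where low levels leave log2(CPM + 1) closer to 0 than the ratio.

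For the other imprinted genes, a mean of at least 5 CPM left 6 called higher in A4573-R (median -0.20) and 5 in TC-71-R (median -0.19); with no filter, which adds genes near 0, the medians were 0 and -0.00037. Without single libraries the TC-71-R median ran from -0.121 to -0.0448. The median of the MEST neighbours in A4573-R was -0.18 with DESeq2, -0.20 with edgeR, -0.16 with a pseudocount of 0.25, -0.20 within 0.5 Mb and -0.18 within 2 Mb, and ran from -0.164 to -0.0923 without single libraries. In TC-71-R it was -0.0869 with a mean of at least 5 CPM and 0.21 within 0.5 Mb. Medians near 0 turned sign in TC-71-R: imprint machinery to 0.00706 (DESeq2), 0.00807 (edgeR) and 0.00781 (median of ratios), with -0.0530 to 0.00101 without single libraries, and gag-like genes to 0.0106 (DESeq2), 0.0121 (edgeR), 0.00988 (median of ratios), with -0.0217 to 0.00782 without single libraries (above or at 0 without TC-71 parental replicate 2 and TC-71-R replicates 2 and 3). The causes were not tested. AC016831.1 in TC-71-R (adjusted p = 0.0268) and TET3 in TC-71-R (0.0368), which are in the counts of their lists, lost their calls under some alternatives. RTL8B and BET1 in TC-71-R gained calls with edgeR, DESeq2 and median of ratios (adjusted p = 0.0303 and 0.0151 with the last).

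Sample numbers did not pair the libraries: deviations of same-numbered libraries correlated at -0.065 to 0.013 in A4573 and -0.097 to 0.016 in TC-71. With the number as a replicate block, 5585 genes were called higher and 5700 lower in TC-71-R, against 5567 and 5681 without it, 3 members were called higher and 1 lower, and no call of a named gene or list count moved by over 1.5 times. At this depth, H19, MEG3, DLK1 and NNAT rest on under 100 reads per library, and counting error limits them.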
